A study of Mus musculus with 8 samples.

Results

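Liver and spleen of mice were compared for DNA methylation at CpG islands on 4 arrays of a series of 8. The 4 arrays hold liver of aid-/- mice, liver of mbd4-/- mice, spleen of aid-/- mice and spleen of mbd4-/- mice, 1 array each, all C57BL6/J animals aged 6 months. The other 4 arrays hold embryonic stem (ES) cells, which are wild type, aid-/-, mbd4-/- or treated with a knockdown of Gadd45a, and they enter here only as levels beside the tissues. Both tissues therefore carry a deletion on every array: aid encodes a cytidine deaminase of activated B cells and Mbd4 a DNA repair enzyme that excises mismatched thymine. No wild-type tissue was analysed here, and the labels credit the aid-/- and the mbd4-/- tissue DNA to different laboratories. The labels do not say whether a liver and a spleen came from 1 animal or from pooled animals. Liver was set against spleen within each genotype, which gives 2 pairs that share no array. A region was called when both pairs showed a log2 difference of 1 or more between the tissues in the same direction, with at least 75% of its probes in that direction in each pair. Of 12824 regions of at least 3 probes on chromosomes 1 to 19, 59 were higher in liver and 58 higher in spleen.

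CpG islands are stretches of DNA dense in the dinucleotide CG, and many hold the start site of a gene. Most island promoters stay free of methylation in all cell types, while islands inside genes and at the edges of promoters more often take a methylation level that depends on the cell type. Liver is made up mostly of hepatocytes, with bile duct cells, endothelium and resident macrophages. Spleen holds mainly B and T lymphocytes, myeloid cells and erythroid cells on a stroma of fibroblasts and endothelium. In bulk tissue a region's value averages over all these cells, so a change in a cell type's share and a change of methylation within a cell type cannot be told apart.

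The assay was methyl-DNA immunoprecipitation (mDIP), in which an antibody against 5-methylcytidine binds sheared, denatured DNA. Bound DNA (Cy5) and input DNA (Cy3) of the same sample were set against each other on 1 array. Values are means over the probes of a region of the log2 ratio of bound to input signal, with the array's median probe set to 0. They were then multiplied by 1 factor per array so that the 98th percentile of the regions, called the plateau here, was 3.03 on all arrays. Before that scaling the plateau was 2.23 in aid-/- liver, 2.24 in aid-/- spleen, 4.02 in mbd4-/- liver and 3.65 in mbd4-/- spleen, so the aid-/- arrays were stretched and the mbd4-/- arrays compressed. A value near 3 is among the most strongly bound regions. It is no methylation percentage.

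The following probes carry the leading differences and show what the arrays read. They are the probe with the largest difference in each of the 3 leading regions of either direction, 5′ to 3′ as the array design gives them, with positions in mm9 and CG dinucleotides in capitals. The first Hoxa3 probe reads as the plus strand and lies in the start window of 5730596B20Rik; the strand of the others was not determined here. Sheared fragments were 300 to 1000 bp per the labels, so a probe without a CG can report CGs beside it. The first 3 are higher in liver and the last 3 higher in spleen.

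Fut11 (chr14:21514889-21514933): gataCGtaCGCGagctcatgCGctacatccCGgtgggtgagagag
1200009I06Rik (chr12:112667945-112667989): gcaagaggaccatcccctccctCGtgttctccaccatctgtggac
Meis2 (chr2:115888052-115888096): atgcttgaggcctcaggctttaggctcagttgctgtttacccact
Hoxa3 (chr6:52127106-52127159): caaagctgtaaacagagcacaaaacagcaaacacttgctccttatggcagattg
Hoxa3 (chr6:52126186-52126240): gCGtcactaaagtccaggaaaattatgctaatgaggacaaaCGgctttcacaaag
Gfi1 (chr5:108150354-108150398): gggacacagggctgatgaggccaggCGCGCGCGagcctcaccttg

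The Fut11 probe had values of 2.19 and 3.33 in aid-/- and mbd4-/- liver against 0.06 and −1.15 in the spleens. The Gfi1 probe had 0.83 and 1.26 in the livers against 2.70 and 4.07 in the spleens. Another 4 probes, chosen after their values were seen, are shown because they lie in regions of blood cell regulators; the first 3 were higher in spleen and the Lyl1 probe was higher in liver.

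Runx1 (chr16:92695996-92696043): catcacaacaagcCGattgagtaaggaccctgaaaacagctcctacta
Sfpi1 (chr2:90955447-90955493): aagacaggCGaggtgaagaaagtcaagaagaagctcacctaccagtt
Pax5 (chr4:44677359-44677412): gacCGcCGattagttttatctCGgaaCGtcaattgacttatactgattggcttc
Lyl1 (chr8:87225427-87225471): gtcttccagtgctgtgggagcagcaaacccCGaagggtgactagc

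The 117 called regions were 0.912% of all regions, 0.46% with liver higher and 0.452% with spleen higher. Over all regions liver minus spleen had a median of 0.11 and an SD of 0.43 in the aid-/- pair, and a median of −0.0045 (SD 0.32) in the mbd4-/- pair. Across regions, which are not independent replicates, the 2 pairs correlated at Pearson's r = 0.30, given as a description. The aid-/- pair alone gave 203 regions higher in liver (1.58%) and 129 higher in spleen (1.01%), and the mbd4-/- pair alone gave 115 (0.897%) and 125 (0.975%). No region was called in one direction in one pair and in the opposite direction in the other. The 4 arrays correlated over regions at r = 0.888 to 0.932.

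**Figure D1:**
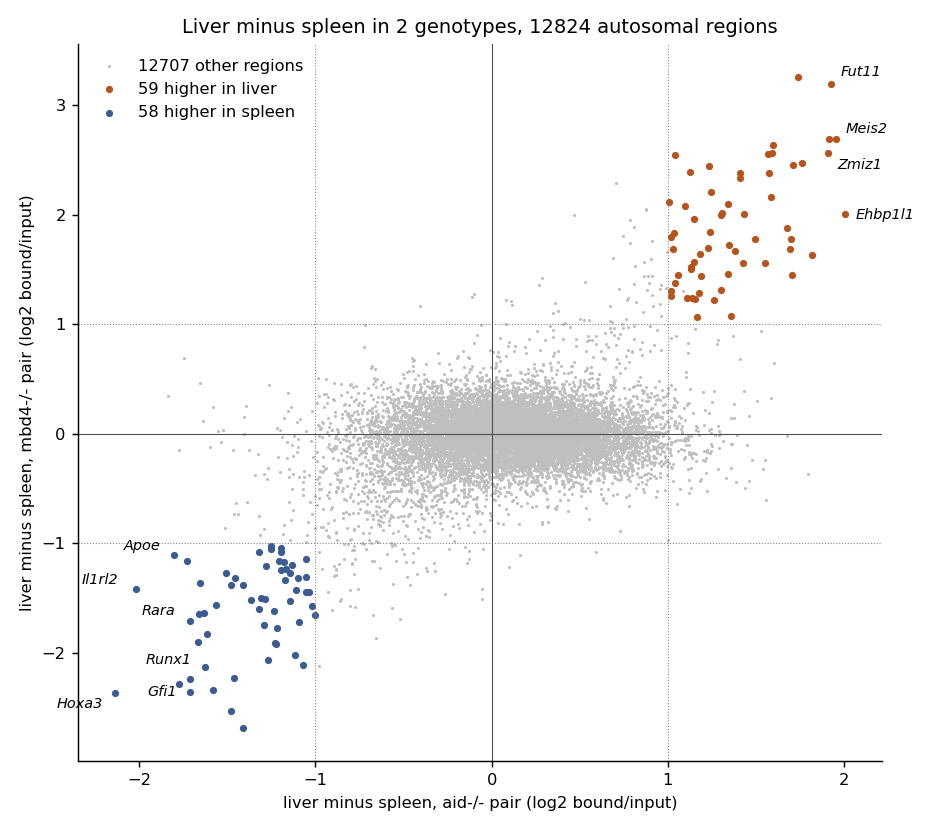
Liver minus spleen in the aid-/- pair (horizontal) and the mbd4-/- pair (vertical), in log2 bound over input at a common plateau, 1 point per region; dotted lines mark the threshold of 1. The 59 regions higher in liver and the 58 higher in spleen lie in the upper right and lower left corners, and no region lies past both thresholds in the other corners.

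The regions with the largest excess in liver belonged to genes of varied function. The leading region covered the start of Fut11 (chromosome 14, 21514121 to 21515167), which encodes a fucosyltransferase. The livers read 2.51 ± 0.42 (aid-/-) and 2.76 ± 0.43 (mbd4-/-; SD over 8 probes), and the spleens 0.59 ± 0.52 and −0.44 ± 0.63. Liver was thus higher by 1.93 in the aid-/- pair and by 3.20 in the mbd4-/- pair, and each of the liver values was far above both spleen values. At 1200009I06Rik (current symbol Exoc3l4; chromosome 12, 112667716 to 112667989) the livers read 2.63 and 3.23 and the spleens 0.89 and −0.03. At Meis2, a homeobox gene (chromosome 2, 115887946 to 115888259), the livers read 1.84 and 1.99 and the spleens −0.12 and −0.71, below the array median.

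The next regions repeated this order, with both livers near the plateau and both spleens lower. Lxn, which encodes the carboxypeptidase inhibitor latexin, had 2.98 and 2.71 in aid-/- and mbd4-/- liver against 1.07 and 0.02 in spleen. Zmiz1, a coregulator of transcription, had 2.67 and 2.54 against 0.75 and −0.02 over 10 probes (chromosome 14, 26426247 to 26427724). S1pr4, a sphingosine-1-phosphate receptor of lymphoid cells, had 2.42 and 2.89 against 0.82 and 0.25. In each of these the mbd4-/- spleen was the lowest of the 4 arrays. Bdh1, the mitochondrial enzyme that interconverts the ketone bodies acetoacetate and hydroxybutyrate, had 2.20 and 2.32 in the livers against 0.44 and −0.15 in the spleens, over 12 probes that include its start site (chromosome 16, 31428765 to 31430190). Cyp26c1, which degrades retinoic acid, had 2.60 and 2.44 against 1.03 and 0.06.

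Of the 15 leading gene-named regions with liver higher, the other 7 were at Arhgef19, Fam83h, Sorbs3, Ehbp1l1, Wnk4, Lrrc4 and Prosapip1 (current symbol Lzts3). Their mean differences over both pairs ran from 1.84 at Prosapip1 to 2.08 at Arhgef19. Wnk4 is a kinase of renal salt transport and Sorbs3 encodes vinexin, a protein of cell adhesions. Fam83h had 16 probes, with 2.28 and 2.52 in the livers against 0.70 and −0.05 in the spleens. Ehbp1l1 was the 1 region of the 15 in which both pairs gave the same difference, 2.01, with spleens at −0.66 and −0.58.

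**Figure D2:**
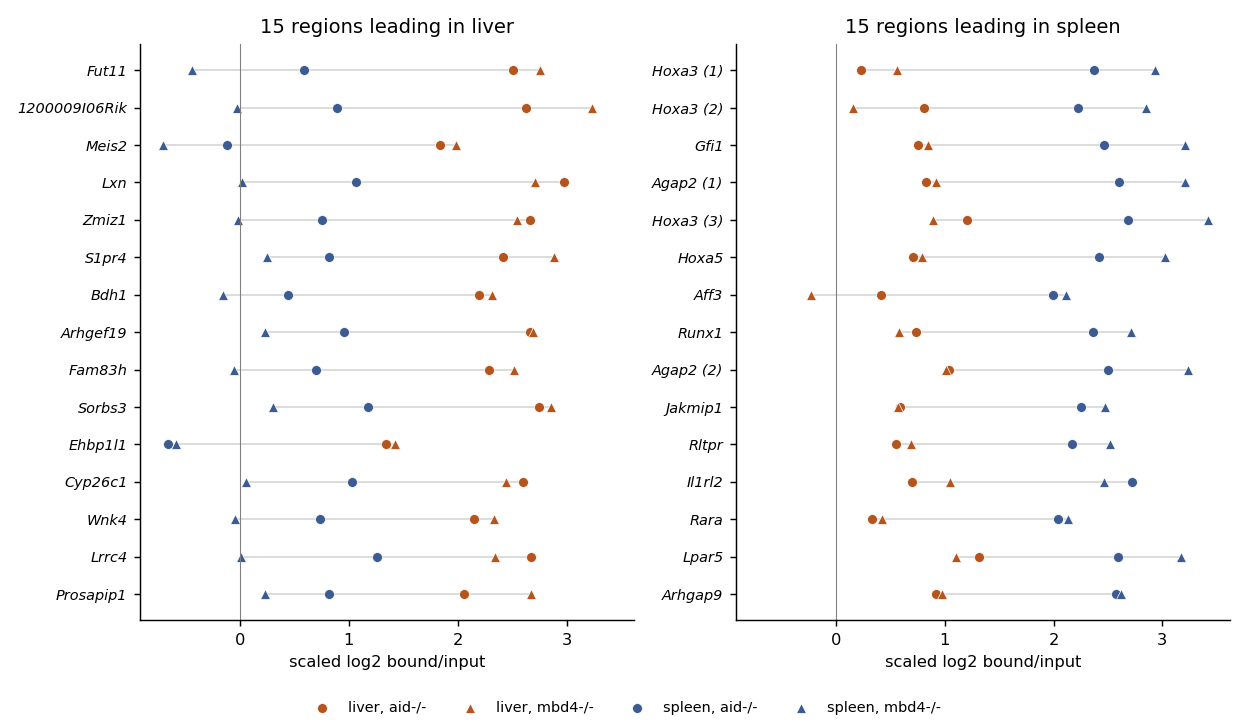
Scaled log2 bound over input of the 15 leading regions of each direction (rows, largest mean difference at the top) on the 4 arrays: circles aid-/-, triangles mbd4-/-, brown liver, blue spleen, with a grey line over the range. Both arrays of one tissue lie to the right of both arrays of the other, as in every called region and in 26% of all regions. The rule compares the tissues within each genotype, which favours this order but does not require it. Numbers in brackets tell apart regions of 1 gene.

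The regions with the largest excess in spleen were led by Hox genes and by regulators of blood cells. The leading region was at Hoxa3 (chromosome 6, 52127106 to 52127579), a homeobox gene of the Hox A cluster, which patterns the body axis. Its values were 2.37 ± 0.18 and 2.93 ± 0.25 (SD over 3 probes) in aid-/- and mbd4-/- spleen and 0.23 ± 0.18 and 0.56 ± 0.44 in the livers. Spleen was higher in both pairs, and liver minus spleen was −2.14 and −2.37. At Gfi1, a transcriptional repressor needed in blood stem cells and neutrophils (chromosome 5, 108150057 to 108150990), the spleens read 2.47 ± 0.37 and 3.21 ± 0.46 over 7 probes and the livers 0.76 ± 0.31 and 0.85 ± 0.30.

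Agap2, which encodes a GTPase-activating protein for Arf proteins, had 2 called regions within 12427 bp on chromosome 10 (126516710 to 126517512 and 126528077 to 126529136). The first read 2.60 and 3.21 in the spleens against 0.83 and 0.92 in the livers, and the second 2.50 and 3.23 against 1.04 and 1.01. Aff3, a nuclear protein of lymphoid tissue, had 1.99 and 2.11 in the spleens against 0.41 and −0.23. In these the livers lay near the level of 1 or below. They did not overlap the spleens, as in every called region and in 26% of all regions.

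Further leading regions lay at receptors and signalling genes. Rara, the retinoic acid receptor alpha, had the same difference in both pairs, −1.71, from spleens at 2.04 and 2.13 and livers at 0.33 and 0.43. Il1rl2, the receptor chain of interleukin 36, had 2.72 and 2.46 in spleen against 0.70 and 1.05 in liver. Rltpr (current symbol Carmil2), an actin regulator of T cells, had 2.17 and 2.52 against 0.55 and 0.69. The 3 others of the leading 15 beside Hoxa3, Hoxa5 and Runx1 were Jakmip1, Lpar5, a receptor for lysophosphatidic acid, and Arhgap9, a GTPase-activating protein, with mean differences of −1.78, −1.67 and −1.65. Lpar5 did not meet the rule without scaling, at an equal SD or with normexp background correction. Of the 30 leading regions, the other losses of a call were Prosapip1 without scaling, Hoxa3 (52125538 to 52126240) with normexp, and Runx1 when probes were joined over longer distances.

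**Figure D3:**
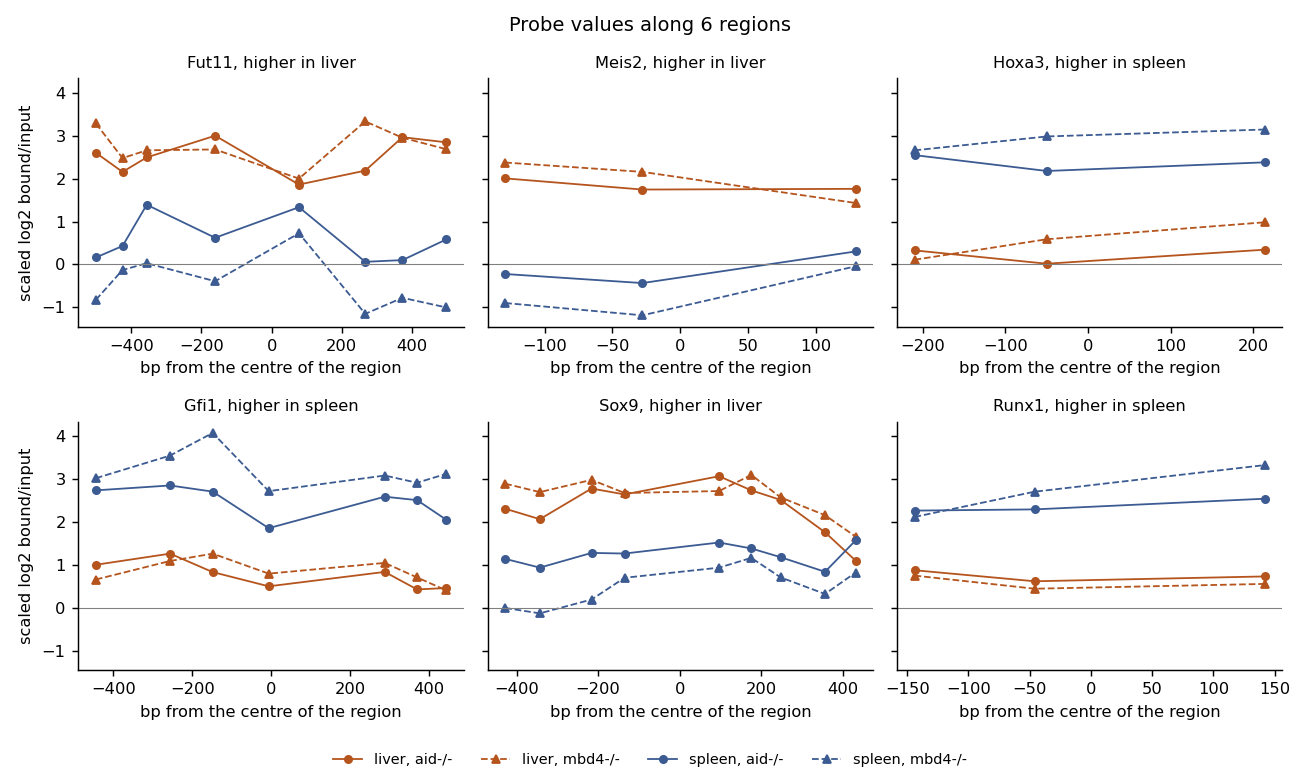
Scaled log2 bound over input of each probe against its distance in bp from the centre of the region, for 3 regions higher in liver (Fut11, Meis2, Sox9) and 3 higher in spleen (Hoxa3, Gfi1, Runx1); solid lines with circles are aid-/-, dashed lines with triangles mbd4-/-, brown liver, blue spleen. The tissues stay apart along the whole of each region except at the last probe of Sox9.

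Probes of a called region mostly went the same way. The rule favours this, since it asks for a mean difference of 1 or more in both pairs. Fragments of 300 to 1000 bp can also cover several probes, so probes of a region are not independent readings. In 54 of the 59 regions higher in liver and 57 of the 58 higher in spleen, every probe differed in the direction of the call in both pairs. The rule itself asked for 75%, and without that condition 60 regions were called higher in liver and 58 higher in spleen. The share over all regions was not computed. At Sox9 the last of 9 probes read 1.095 in aid-/- liver and 1.57 in aid-/- spleen, against the call.

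Hox genes gave 7 of the 58 regions higher in spleen and none of those higher in liver. The list of Hox genes has 62 regions, of which 11.3% were called with spleen higher, where 0.452% of all regions were. Of the 7, 4 lay in the A cluster within 32383 bp and 3 in the B cluster within 4340 bp. In the limma fit described at the end of the results, 10 of the 62 had an adjusted p under 0.05, all with spleen higher. That fit gave such a p with spleen higher to 1.48% of all regions. It used the same differences as the rule, so the 7 called regions are among the 10 by construction. The 3 regions of Hoxa3 read 2.37, 2.23 and 2.68 in aid-/- spleen and 0.23, 0.81 and 1.204 in aid-/- liver, in order of falling position, and 2.93, 2.85 and 3.42 against 0.56, 0.16 and 0.89 in the mbd4-/- tissues. Hoxa5 (chromosome 6, 52153690 to 52154799), whose region includes a RefSeq start site of the gene, read 2.42 and 3.03 in the spleens against 0.71 and 0.79 in the livers. The 3 regions of Hoxb3 had mean differences of −1.63, −1.21 and −1.59, and a further Hoxb3 region between 96193941 and 96194547 on chromosome 11 missed the rule with −0.68 and −1.16. When probes up to 1000 bp apart were joined, the called Hoxb3 region at 96203242 to 96203658 had a mean difference of −0.86 and no call, and it had none with normexp. The regions at 96205389 and 96207239 were not called without scaling or at an equal SD, nor the former without the filter on dim probes.

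Most of the remaining Hox regions lay near 0. Between the called regions of the A cluster, Hoxa4 had a mean difference of −0.01, and beyond Hoxa5 Hoxa6 had 0.16. The C and D clusters had 14 and 16 regions and no call, with mean differences from −0.79 to 0.22 and from −1.03 to 0.11. The median over the 62 Hox regions was −0.14, against 0.06 over all regions.

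Blood cell regulators, transcription factors that specify blood lineages, gave 6 regions higher in spleen and 1 higher in liver among 89 regions, or 6.74% and 1.12%. Over all regions these shares were 0.452% and 0.46%. The median difference of the 89 was 0.14, and limma gave an adjusted p under 0.05 to 8 with spleen higher and 2 with liver higher. Of all regions, 1.48% had such a p with spleen higher and 1.19% with liver higher. The called regions of the list have such a p by construction, since the fit used the same differences as the rule. Beside Gfi1, the 6 were Runx1, Sfpi1, Pax5, Fli1 and Hlx. Runx1, a factor required for blood stem cells to form (chromosome 16, 92695711 to 92696043), read 2.36 ± 0.15 and 2.71 ± 0.60 (SD over 3 probes) in aid-/- and mbd4-/- spleen and 0.74 ± 0.13 and 0.58 ± 0.15 in the livers. Sfpi1 (current symbol Spi1), which encodes the myeloid and B cell factor PU.1 (chromosome 2, 90955291 to 90955741), read 2.02 and 2.65 in the spleens and 0.87 and 1.12 in the livers. At both genes the 2 spleens lay above the 2 livers with no overlap. The tissues were likewise apart in every called region and in 26% of all regions.

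Pax5, the factor that commits cells to the B lineage, was lower in level than the others (chromosome 4, 44676950 to 44677561): 1.099 and 1.25 in the spleens against −0.14 and −0.37 in the livers. Its 5 probes scattered widely, with an SD of 1.34 in aid-/- liver. Fli1, an ETS factor of blood and endothelium, read 2.58 and 3.16 in the spleens against 1.28 and 1.67 in the livers. Hlx, a homeobox gene of blood cells and gut, read 2.43 and 2.65 against 1.26 and 1.31. Lyl1, a partner of early blood factors, was the exception, with livers at 1.38 and 1.67 and spleens at 0.33 and 0.21.

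These calls differ in how far they depend on the settings. Runx1 lost its call only where probes up to 1000 bp apart were joined, which merges it with a flat region of 15 probes and gives −0.42. Pax5 had −0.71 and no call where only probes up to 250 bp apart were joined. It was also not called under 3 other alternatives (without scaling, with normexp, with the deposited table). Lyl1 lost its call under 7 of 14 alternatives and Sfpi1 and Fli1 under 3 of 13 each, with no change of direction.

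Genes that hepatocytes use gave 2 calls. The list of hepatocyte regulators had 29 regions, no call in either direction and a median of −0.16, and the largest difference was 0.96 at Nr5a2, a nuclear receptor of bile acid synthesis (0.53 and 1.39 in the pairs). Hepatocyte products had 17 regions, of which 1 was called higher in liver and 1 higher in spleen (5.88% each, against 0.46% and 0.452% of all regions), with a median of −0.18. Apoe, the apolipoprotein of remnant particles, was higher in spleen: 2.50 and 3.14 in aid-/- and mbd4-/- spleen against 0.70 and 2.04 in the livers (chromosome 7, 20281867 to 20282316). The mbd4-/- liver value of 2.04 was well above that of aid-/- liver, though below both spleens. Abcg5, the partner of Abcg8 in a sterol transporter, was higher in liver, with 1.83 and 1.82 against 0.80 and 0.13, and its region includes a RefSeq start site of Abcg8; the call was lost under 7 of 13 alternatives.

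Sox9, a factor of bile duct cells and of cartilage, gave both calls in the biliary list of 12 regions. The list had a median of −0.02. Its lowest region, at the keratin gene Krt7, had −1.11 and an adjusted limma p under 0.05 with spleen higher. The 2 Sox9 regions, called with liver higher, were 16.7% of the list, against 0.46% of all regions. The larger region (chromosome 11, 112645929 to 112646839) read 2.33 ± 0.61 and 2.60 ± 0.45 (SD over 9 probes) in the aid-/- and the mbd4-/- liver, against 1.23 ± 0.24 and 0.52 ± 0.45 in spleen. The smaller one beside it read 2.05 and 1.42 against 0.75 and 0.11. With probes joined up to 1000 bp both merged with the neighbouring Sox9 region of 17 probes and the difference was 0.60, with no call. The calls were lost under 5 of 14 and 4 of 13 alternatives.

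Tbx3, a T-box factor of liver and limb development, also gave 2 regions higher in liver, the only calls among 322 regions of other developmental transcription factors (0.621%, near the 0.46% of all regions); neither was called without scaling or with normexp. They read 2.88 and 2.60 in the livers against 1.70 and 0.96 in the spleens, and 2.06 and 2.09 against 0.71 and 0.36. The GATA factors had 18 regions and a call in each direction, 5.56% each, against 0.46% of all regions with liver higher and 0.452% with spleen higher. Gata4, a factor of heart, gut and liver endothelium, was higher in liver (2.40 and 2.34 against 1.39 and 0.54), and Gata2, a factor of blood stem cells and endothelium, was higher in spleen (1.82 and 2.29 against 0.80 and 0.72). Gata4 lost its call under 5 of 13 alternatives and Gata2 under 4 of 14. Gata2 was also the single call among 27 regions of the list of endothelium and fibroblast genes, or 3.7% against 0.452% of all regions.

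No region was called in the lists of lymphoid and myeloid genes (32 regions), erythroid genes (19), spleen stroma (21), imprinted genes (45), germline genes (25), protocadherins (13), methylation machinery (34) and housekeeping genes (33). With 0.912% of all regions called, lists of this size may hold no call at the background share. The largest mean difference in each was −1.03 at Sipa1, 0.47 at Bcl11a, −0.65 at Ltbr, 0.66 at Inpp5f, −0.64 at Mei1, −0.93 at Pcdhga11, 1.17 at Kdm2b and 0.71 at Mcm5. Sipa1, a GTPase-activating protein of lymphocytes, was near the rule, with −0.87 and −1.18 in the pairs, and so was Kdm2b, a demethylase that binds unmethylated CpG islands, with 0.81 and 1.53. The protocadherins, adhesion proteins of neurons, had the lowest median of the 16 lists, −0.36. By limma, 3 of their 13 regions had an adjusted p under 0.05, all with spleen higher. Of all regions, 1.48% had such a p with spleen higher. The fit used the same differences as the rule and is no separate reading of them. The Inpp5f region, at an imprinted gene, lay near the plateau in both tissues, with 3.20 and 2.85 in the livers and 2.37 in each of the spleens.

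**Figure D4:**
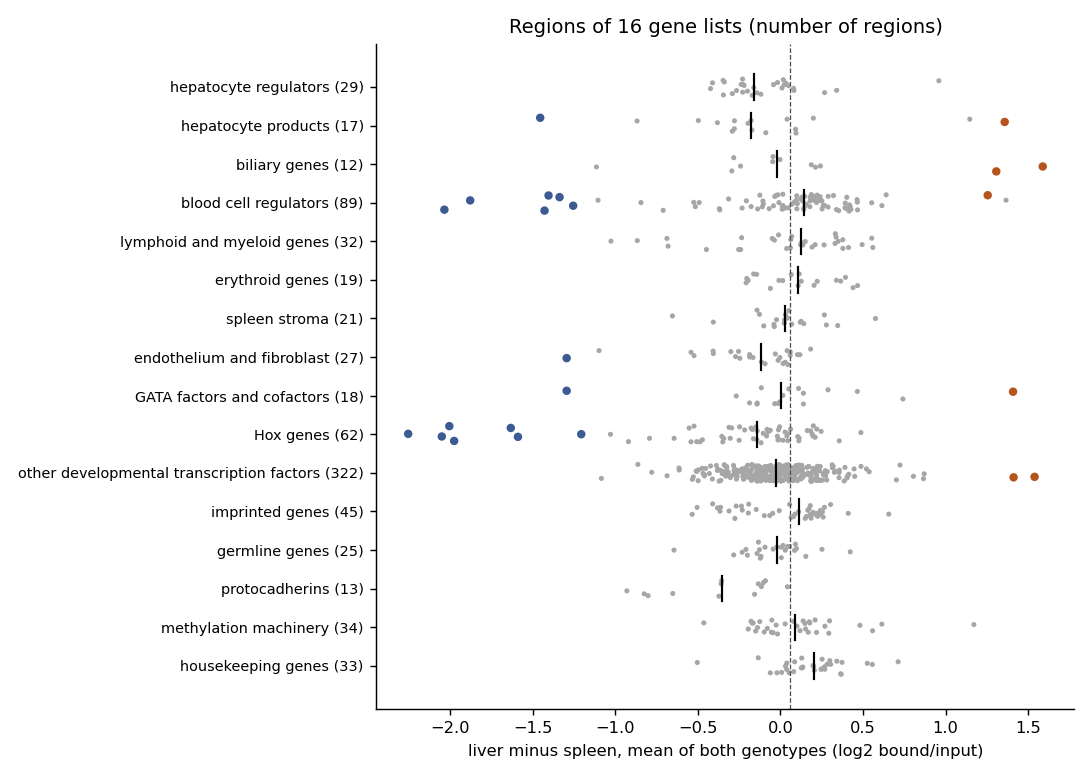
Liver minus spleen, mean of both genotypes, in log2 bound over input, for each region of 16 gene lists (1 point per region, number of regions in brackets); brown and blue points are called with liver or spleen higher, black bars are medians and the dashed line is the median of all regions, 0.06. Calls with spleen higher gather in the rows of Hox genes and blood cell regulators, while most regions of every list lie within 0.5 of 0.

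As an array of DNA cannot show which cells a tissue holds, the labels could be checked only against methylation at cell type markers. Methylation of a marker gene does not measure its expression, so these values give no verdict on the labels. Of 54 marker genes, 28 had a region, and of their 49 regions 2 were called higher in liver (both Sox9) and 2 higher in spleen (Pax5 and Sfpi1). Over all regions, 0.46% and 0.452% were called. The 8 biliary marker regions, Sox9 among them, had a median difference of −0.05 and ran from −1.11 to 1.59. The 7 B cell marker regions, Pax5 among them, had a median of 0.20, and Sfpi1 was the only myeloid marker with a region. The 5 hepatocyte marker regions had no call and differences from −0.38 to −0.14. Markers of T cells (5 regions, −0.87 to 0.25) and of all leukocytes (5 regions, −0.68 to 0.47) had no call. Neither did markers of erythroid cells, endothelium and fibroblasts. Among the defining genes Alb, Hnf4a, Cd79a, Cd3e, Ptprc and Gata1 had no autosomal region. The markers of spleen stroma stayed low in both tissues, between −0.73 and 0.36 in the livers and between −0.94 and 0.22 in the spleens, over 11 regions.

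The called regions carry 104 gene names, 55 with liver higher and 49 with spleen higher, and no name has calls of both directions. Of the 104, 58 have more than 1 measured region and 5 more than 1 called region. The 87 uncalled regions of these genes had a median difference of 0.04, and 69 of them (79.3%) lay within 0.5 of 0, against 93.9% of all uncalled regions. At Gfi1 the called region had −1.71 and −2.36, while the next 2 regions of the gene, 1 of which holds the start site, had mean differences of 0.08 and 0.18.

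At Runx1, the adjoining region of 15 probes had −0.12, while a more distant one missed the rule with −0.52 and −1.69. At Zmiz1 the region with the start site had −0.01 over 15 probes against 2.24 in the called region. At Gata2 the 3 other regions, 2 of them with a start site, had −0.19 to −0.01, and at Pax5 the 4 others had 0.10 to 0.32. Sox9 had −0.04 over 17 probes in the island next to its called regions, and Tbx3 −0.01 over 10 probes. Lyl1 differed from these, since its 2 uncalled regions had mean differences of 1.37 and 0.64. Uncalled regions of 1200009I06Rik (1.28 and 0.94) and Lrrc4 (1.197, with 1.09 and 1.31 in the pairs and under the share of probes required) also lay far from 0. Uncalled regions of Nacc2 (−1.31 and −0.92 in the pairs) and Ehbp1l1 (−0.55 and −1.01) went against the call of the gene, which has liver higher.

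**Figure D5:**
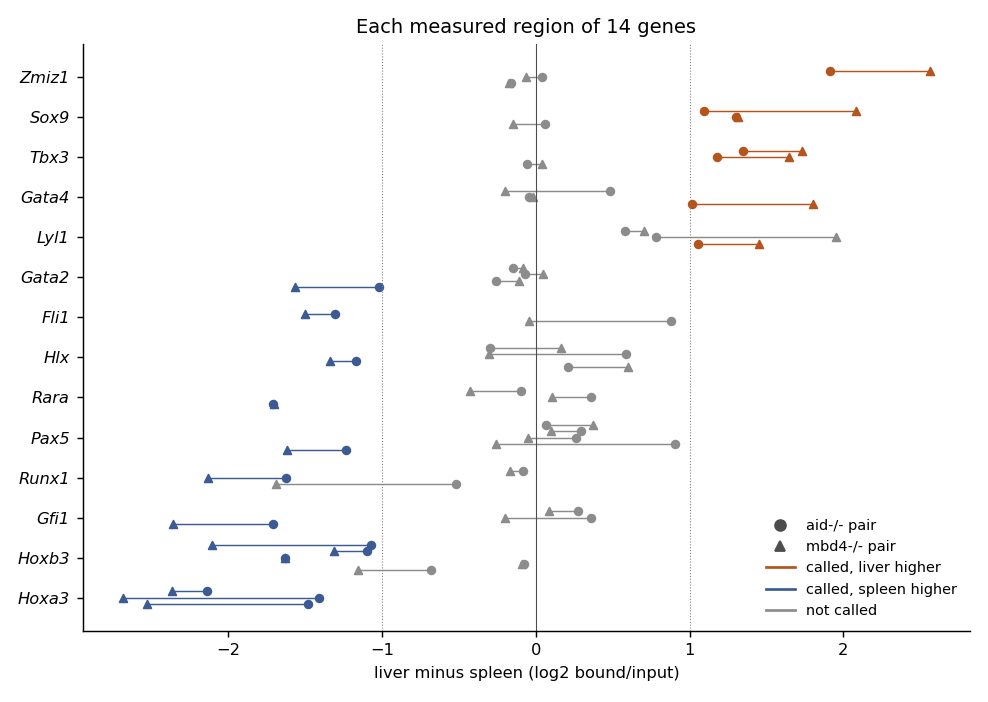
Liver minus spleen in log2 bound over input for every measured region of 14 genes, with a circle for the aid-/- pair and a triangle for the mbd4-/- pair joined by a line; brown and blue mark called regions and grey the others, and dotted lines stand at −1 and 1. For most of these genes the grey regions lie near 0 beside a called region past the threshold.

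Most called regions held no known gene start. A start site window (250 bases before to 50 bases after a RefSeq start, assembly GRCm38.p6) shared a probe with 15 of the 59 regions higher in liver (25.4%) and 9 of the 58 higher in spleen (15.5%), against 53.9% of all regions. Whether the other regions are exonic, intronic or in a UTR was not determined here. The starts with liver higher included those of Fut11, Lxn, Bdh1, Ehbp1l1, Ece1 and B3galt4, and those with spleen higher included Hoxa5, Bcat1, Cdh7, Nav1 and Sema4b. Median GC content was 56.4% and 55.8% against 56.7%, and CG dinucleotides per 100 probe bases were 4.73 and 5.10 against 5.48. Median lengths were 565 and 465 bp against 619 bp. These shares are descriptions with no test.

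Called regions were mostly high in one tissue and at an intermediate or low level in the other. The rule favours this, since it selected on these same values. Both arrays of the higher tissue were above 50% of the plateau, 1.52, in 48 of the 59 and 51 of the 58 regions, and both arrays of the lower tissue were below it in 53 and 46. Both conditions held in 42 and 39. Of all 12824 regions, both livers reached 50% of the plateau in 1081, both spleens were below it in 11557, and both conditions held in 68. The same count over all regions with spleen as the higher tissue was not made. Both arrays of the lower tissue lay below the array median in 3 regions of each direction. The median level of regions higher in liver was 2.20 and 2.32 in aid-/- and mbd4-/- liver, 0.80 in aid-/- spleen and 0.23 in mbd4-/- spleen. That of regions higher in spleen was 2.36 and 2.60 in the spleens and 0.85 and 0.86 in the livers.

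On the wild-type ES array the median was 0.24 for regions higher in liver and 0.19 for those higher in spleen, against −0.11 for all regions. All 4 ES arrays lay below 50% of the plateau in 49 of 59 (83.1%) and 45 of 58 (77.6%), against 87.9% of all regions. Hoxa3 had −0.87, −1.72 and −0.42 in wild-type ES cells, below both tissues, and Fut11 had −0.33. A few regions, singled out after their values were seen, were high in ES cells. In Nfic, Alkbh6 and Irs2, all higher in spleen, all 4 ES arrays exceeded 50% of the plateau. Among regions higher in liver, S1pr4 (2.22), Arhgef19 (2.39) and Lyl1 (2.56) did so in wild-type ES cells.

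The median difference of the bound channel was 0.88 and 2.47 in the aid-/- and mbd4-/- pairs for regions higher in liver and −1.03 and −1.62 for those higher in spleen, on the unscaled log2 signal. The input channel differed by −0.01 and 0.06 and by 0.01 and 0.11, and by less than 1 in each of the 117 regions; over all 12824 regions it differed by 1 or more in 4 in the aid-/- pair and 1 in the mbd4-/- pair. In all 117 regions at least 1 probe had a bound signal well above background on each of the 4 arrays, as in all but 14 of the 12824 regions. Every probe had one on all 4 arrays in 48 of the 59 regions higher in liver and 47 of the 58 higher in spleen. Of all 12824 regions, 5976 did.

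Of the called regions, 15 lay within 50 kb of another, in 6 groups, 3 with liver higher and 3 with spleen higher and none mixed. They are the Hox A and Hox B groups, Agap2, Sox9, Tbx3, and Fam83h with its neighbour Mapk15 on chromosome 15. How many of all regions lie within 50 kb of another was not counted. Neither the grouping nor the shared direction was therefore tested against the background. Most of the groups hold regions of a single gene, and the joining of probes affects them. The Sox9 regions merged when probes up to 1000 bp apart were joined.

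The remaining members were 35 gene-named regions higher in liver, with mean differences of 1.12 to 1.79, and 30 higher in spleen, from −1.57 to −1.099. With liver higher these were Fxyd1, A830007P12Rik, AI464131, Espn, Lrrc8d, Ngef, Plekhh3, Nacc2, Phospho1, Pnma1, Rnf39, Pml, Nphs1as, Trim2, Klhdc9, Mib2, Snx10, Ece1, C77080, Grik4, Fbrsl1, Pth1r, Hspb9, Akap5, Phldb3, Mapk15, Bcat2, Tjp3, Scn8a, Rapgef1, Maff, B3galt4, Hapln4, Dlgap1 and Fam131c. With spleen higher they were Nfic, Cdh7, Alkbh6, Cblc, 4933422H20Rik, Mpst, Ncf1, Nav1, Shroom1, Sema4b, Sh2d3c, Bcl6b, Myo10, AI848285, Tnfrsf13b, Bcat1, Alox5ap, Irs2, 2810410L24Rik, Tubb4, Rasip1, Fmnl1, Vasn, Il12rb1, A530088E08Rik, Gltpd2, Ebi3, Gimap1, Mir1905 and Kcnk12. The last 2 regions higher in liver and 4 higher in spleen carry no gene name.

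Bcat1 and Bcat2, which encode the cytosolic and the mitochondrial aminotransferase of branched-chain amino acids, went opposite ways, with −1.33 and 1.23. Some genes with known roles in leukocytes were among those higher in spleen; they were picked out after their values were seen, while the list of lymphoid and myeloid genes had no call and a median of 0.12, and S1pr4 was higher in liver. Alox5ap, a protein of leukotriene synthesis, read 2.99 and 3.37 in the spleens against 1.53 and 2.05 in the livers. Ncf1, a subunit of the phagocyte oxidase, read 2.37 and 2.43 against 1.19 and 1.26, and Gimap1, a GTPase of lymphocytes, 2.44 and 2.73 against 0.88 and 1.16. In each the tissues did not overlap, as in every called region and in 26% of all regions.

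The threshold has no gap at it. Just inside were Bcat1, with −1.0007 and −1.66, and Trim2, with 1.01 and 2.11. Just outside were Sh3bp2, with 0.997 and 1.66, and an unnamed region on chromosome 2 (33821987 to 33822320), with −1.05 and −0.99.

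The 2 genotypes repeated each other unequally. Of the 203 regions called higher in liver in the aid-/- pair, 61.1% also had liver higher in the mbd4-/- pair and 29.1% were called there. Of the 129 called higher in spleen in that pair, 86.8% kept the sign and 45.0% were called. Taken the other way, 97.4% of the 115 regions higher in liver and 97.6% of the 125 higher in spleen in the mbd4-/- pair had the same sign in the aid-/- pair, and 51.3% and 46.4% were called. The share of all regions with each sign was not computed. The scale factor was 1.36 on both aid-/- arrays, 0.755 on mbd4-/- liver and 0.83 on mbd4-/- spleen. The threshold of 1 was therefore a smaller unscaled difference in the aid-/- pair. The mbd4-/- pair lies on 1 slide and the aid-/- pair on 2, and scan day and genotype split the 4 arrays the same way, so genotype, laboratory and scan day cannot be told apart. Liver and spleen of the aid-/- pair lie on different slides, so slide and tissue cannot be told apart in that pair. The parts of the slide and of the scaling in the unequal repeat of the genotypes were not tested.

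Regions called in the aid-/- pair whose difference in the mbd4-/- pair was within 0.25 of 0 numbered 88 with liver higher and 30 with spleen higher. The 88 had median values of −0.23 in aid-/- liver and −1.38 in aid-/- spleen, and of −0.60 and −0.59 in the mbd4-/- tissues, so the difference lay below the array median. The same count for regions called in the mbd4-/- pair was 6 and 10.

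A limma fit of tissue with genotype as a second term called 152 regions higher in liver (1.19%) and 190 higher in spleen (1.48%) at a Benjamini-Hochberg adjusted p under 0.05, and 1120 regions had an unadjusted p under 0.05. This fit has 1 residual degree of freedom and estimated 1 variance for all regions, with an SE of 0.23 on every difference, so its p-values assume that regions vary alike. The 117 called regions passed it by construction, since it uses the same differences as the rule. In a fit of all 8 arrays with tissue (ES, liver or spleen) and no genotype term, no region passed (lowest adjusted p 0.0814), 301 had an unadjusted p under 0.05, and 114 of the 117 were among these.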

How the data were processed

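Members and gene lists were chosen with earlier results of these data known. The deposited array files give an intensity per spot and channel from Agilent Feature Extraction (10.9.1.1 for the 4 tissue arrays), with processed signals that are background-subtracted and dye-normalised and positions in mm9, per the file headers. Their log10 ratio of Cy5 over Cy3, also deposited, served only to check direction. The deposited value table is a score of unstated scale; it correlated with the scanner log ratio at r = 0.936 to 0.972 on the 4 arrays, had medians of −0.21 to −0.10, and was an alternative only. Only 2 of the 8 files hold probe sequences and gene names, which were applied to all arrays by probe. The normexp alternative (offset 50) used median signals, since 6 of the 8 files used here hold no mean signals.

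Of 88737 probes of 45 to 60 nucleotides, 2887 lay off chromosomes 1 to 19, 127 were outliers and 6835 had input not well above background on some array. Of the 78888 left, 75156 fell in 12824 regions (starts up to 500 bp apart, at least 3 probes, median 5). Each probe gave log2 of bound over input minus the array median. Regions take the name most of their probes carry; 12215 carry one, and of 10245 names 9206 are current and 980 older symbols in a RefSeq gene table (GRCm38.p6). A region holds a start site where an end of 30 bases of a probe matches a RefSeq start window on the same chromosome. The share of probes with bound signal above background was 81.9% to 92.3% on the 4 arrays, and the number of arrays limits the precision. limma 3.58.1 (R 4.3.3) with lmFit and eBayes gave adjusted p-values; the rule and the fit were tested on simulated data. With 1 array per tissue and genotype, the 2 genotypes stand in as replicates. The p-values of the main fit rest on how far the 2 liver minus spleen differences disagree, pooled into 1 variance over all regions. Named are the 15 gene-named regions with the largest mean difference in each direction, called list members, the largest member of each list without a call, unnamed regions among the largest 5 (there were none) and the 2 regions on each side of the threshold. Alternatives covered scaling, centring, background, the deposited table, probe GC, region building, dim probes, the bound channel alone, the threshold and the fit; centring each pair on its median was added after seeing the data.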

Additional observations from a re-analysis of the deposited data

How the results depend on the processing

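The 13 alternatives of values and regions did not all form each region again: 33 of the 59 regions higher in liver and 26 of the 58 higher in spleen were measured under all 13, and the others under at least 10. None of the 117 changed direction where it was measured. Under all 13, 13 and 8 regions were called, and 19 and 16 were called under each alternative that measured them. Without scaling 27 and 24 regions were called (liver and spleen higher), with normexp 27 and 28, with at least 5 probes 34 and 27. At an equal SD 26 were called with spleen higher and 81 with liver higher, so the share with liver higher went from 50.4% to 75.7%. A threshold of 0.5 gave 153 and 243, and 1.5 gave 18 and 12. One pair alone gave 115 to 203 with liver higher and 125 to 129 with spleen higher. With arrays centred on their low mode the aid-/- pair's median difference went from 0.11 to −0.05, and calls were 47 and 62. Centring each pair on its median gave 48 and 65.

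The limma counts of 152 and 190 became 80 and 71 with tissue as the only term, 82 and 107 with at least 5 probes, and 0 and 0 with all 8 arrays. At an equal SD 73 had spleen higher, on the low mode 300, and with a trend 297. The fit of all 8 arrays also had no genotype term, so arrays and model changed together. Leaving out 1 array, again without the genotype term, gave 46 to 92 with liver higher and 46 to 76 with spleen higher, to be read against 80 and 71; without mbd4-/- spleen 70 of the 117 passed, without aid-/- liver 82, without mbd4-/- liver 93 and without aid-/- spleen 112. Among the values of named regions under an alternative, 703 kept their side of the rule, 75 lost the call, 4 gained one and none reversed. Slide or scan day as a term was not run, since scan day splits the 4 arrays as genotype does. The main fit paired the tissues by genotype, and the fit with tissue alone is the one without that pairing. The labels carry no replicate numbers to pair by. Signal over background limits differences below the array median.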
